A study of Mus musculus with 4 samples.

Results

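The genes described here are 10 targets of the transcription co-activator YAP and its DNA-binding partners of the TEAD family in mouse 4T1-T cells: Ctgf, Cyr61, Thbs1, Ajuba, Ankrd1, Amotl1, Amotl2, Lats2, Ptpn14 and Axl. They were chosen by symbol from the deposited count table, where Ctgf (now Ccn2) and Cyr61 (now Ccn1) stand under their older symbols. All 10 were among the 23481 genes of the table and all 10 passed the filter on low counts, which kept 12843 genes. The list was drawn up with results of the same comparison in view, so the values of its members are given as a description. 4T1-T cells derive from 4T1, a breast tumour line of the mouse, and in every library the gene for asparagine synthetase, Asns, had been silenced. The libraries came from cells grown in DMEM without asparagine (2 libraries, A and B) or in DMEM with asparagine (2 libraries, A and B). The comparison addresses how asparagine in the medium bears on gene expression when Asns is silenced. The labels do not state how Asns was silenced, for how long the cells were cultured, or whether each library was a separate culture, so p-values measure only the spread between these libraries, which may be technical.

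YAP and its paralogue TAZ, encoded by Yap1 and Wwtr1, have no DNA-binding domain and reach their target genes through TEAD proteins. The Hippo kinase cascade restrains them: the kinases encoded by Stk3 and Stk4 activate the LATS kinases, which phosphorylate YAP and TAZ and so keep them out of the nucleus. Some target genes encode secreted matrix-associated proteins, and others encode proteins that in turn hold YAP back. In breast cancer cells YAP and TAZ are known for responses to matrix stiffness, cell spreading and cell density.

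Reads assigned to genes numbered 17977552 (A) and 22581543 (B) without asparagine and 23867011 (A) and 30260582 (B) with it. The libraries without asparagine stood further apart: the median absolute log2 difference between A and B over all tested genes was 0.21 without and 0.09 with asparagine. Library A without asparagine had 56.6% of its reads outside annotated features, against 46.3% to 49.3% in the other 3 libraries. The ribosomal RNA gene Rn45s took 3.53% (A) and 1.66% (B) of gene counts without asparagine, against 0.884% (A) and 1.18% (B) with it. Its share thus differed between the groups as well, and its part in the results was not tested. Epithelial markers were abundant, with summed levels of 911 to 923 CPM (read counts scaled to library size by the TMM method) without and 761 to 843 CPM with asparagine. Epcam, one of the 5 markers in that sum, was called higher without asparagine (edgeR quasi-likelihood test, adjusted p = 0.0368). The other 4 were not called, Cdh1 and Krt19 having log2 fold changes of 0.50 and 0.20 and Krt8 and Krt18 of -0.13 and -0.02. The part of these differences in the results that follow was not tested. Markers of endothelial cells and fibroblasts were near 0, with summed levels of at most 0.801 and 0.588 CPM in any library. The sum of leukocyte markers was at most 7.19 CPM, nearly all of it Cd68, which passed the filter on low counts. Cd3e was at 0 counts in every library, Lyz2 had at most 1 count and Dcn at most 2.

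The TEAD family binds the letters GGAATG, written CATTCC on the other strand, and the promoter windows of the members were searched for them. A window ran from 250 bases before to 50 bases after a transcription start, as tabulated by RefSeq on build GRCm38.p6. These starts can differ from the outer ends of the genes in GENCODE M21. The windows of Ankrd1, Amotl1, Amotl2 and Lats2 lie within those gene bounds. For these genes the bases before the outermost annotated start were not searched. There were windows for 8 of the 10 genes, Ctgf and Thbs1 having none, and Lats2 had windows at 2 starts. Either form of the motif occurred in 7 of the 9 windows, compared with 14.7% of all 32851 windows, and thus in 7 of the 8 genes. Since the genes were listed as TEAD targets, this share is a description and no evidence about the list. The 8th gene, Amotl1, held the 5-letter core GAATG without the first G, and this core, which also lies within every GGAATG, was in 38.5% of all windows. A match is a run of letters and not a measured binding site.

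The 250 bases before the RefSeq start are shown for the first 4 genes of the list with a match. These windows hold 6 of the 9 matches, and the 4 genes range from a clear to a weak difference in level. Each reads 5′ to 3′ along its gene, with the motif in either form in capitals. The windows are at chr3:145649986-145650235, minus strand, for Cyr61, chr14:54577662-54577911, minus strand, for Ajuba, chr19:36119845-36120094, minus strand, for Ankrd1, and chr9:102717554-102717803, plus strand, for Amotl2.
Cyr61: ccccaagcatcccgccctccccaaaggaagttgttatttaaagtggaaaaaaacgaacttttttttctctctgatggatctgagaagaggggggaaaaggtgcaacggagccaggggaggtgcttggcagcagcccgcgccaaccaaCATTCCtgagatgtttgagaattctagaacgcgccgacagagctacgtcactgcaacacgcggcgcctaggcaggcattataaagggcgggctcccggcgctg
Ajuba: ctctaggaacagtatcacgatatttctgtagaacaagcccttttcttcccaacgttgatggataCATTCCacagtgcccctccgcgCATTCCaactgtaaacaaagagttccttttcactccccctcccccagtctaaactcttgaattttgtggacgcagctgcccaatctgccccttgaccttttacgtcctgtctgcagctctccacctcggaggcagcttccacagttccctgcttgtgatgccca
Ankrd1: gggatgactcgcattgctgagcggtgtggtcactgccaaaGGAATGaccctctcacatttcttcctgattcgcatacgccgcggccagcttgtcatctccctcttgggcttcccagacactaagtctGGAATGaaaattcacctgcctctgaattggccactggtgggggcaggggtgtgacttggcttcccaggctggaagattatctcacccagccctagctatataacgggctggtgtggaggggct
Amotl2: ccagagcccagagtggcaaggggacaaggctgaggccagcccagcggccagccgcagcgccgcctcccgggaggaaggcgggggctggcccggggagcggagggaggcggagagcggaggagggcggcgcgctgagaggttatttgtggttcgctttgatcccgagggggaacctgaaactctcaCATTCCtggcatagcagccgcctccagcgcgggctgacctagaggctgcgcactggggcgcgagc

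The single match in Cyr61 began 103 bases before the start and that in Amotl2 65 bases before it. Both lie in the 250 bases shown. Ajuba had 2 matches, beginning 186 and 164 bases before its start. Ankrd1 also had 2, beginning 210 and 123 bases before the start. The matches of Cyr61, Ajuba and Amotl2 were in the CATTCC form on the gene's own strand, and those of Ankrd1 in the GGAATG form.

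The other 3 matches are shown with 12 bases on each side, since they place the motif at quite different distances from the start. They lie at chr14:57746102-57746131, minus strand, for Lats2, chr1:189728110-189728139, plus strand, for Ptpn14, and chr7:25788949-25788978, minus strand, for Axl. In Lats2 the match began at base 5 after the more upstream of its 2 starts with a window, counting the start as base 1. That start is not the outermost of the gene, whose bounds reach 57758388 on the minus strand. The match began 146 bases before the Ptpn14 start and 233 bases before the Axl start.
Lats2: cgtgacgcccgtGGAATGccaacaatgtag
Ptpn14: cctccccggacgCATTCCtggcccgcccag
Axl: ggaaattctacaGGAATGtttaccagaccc

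**Figure D1:**
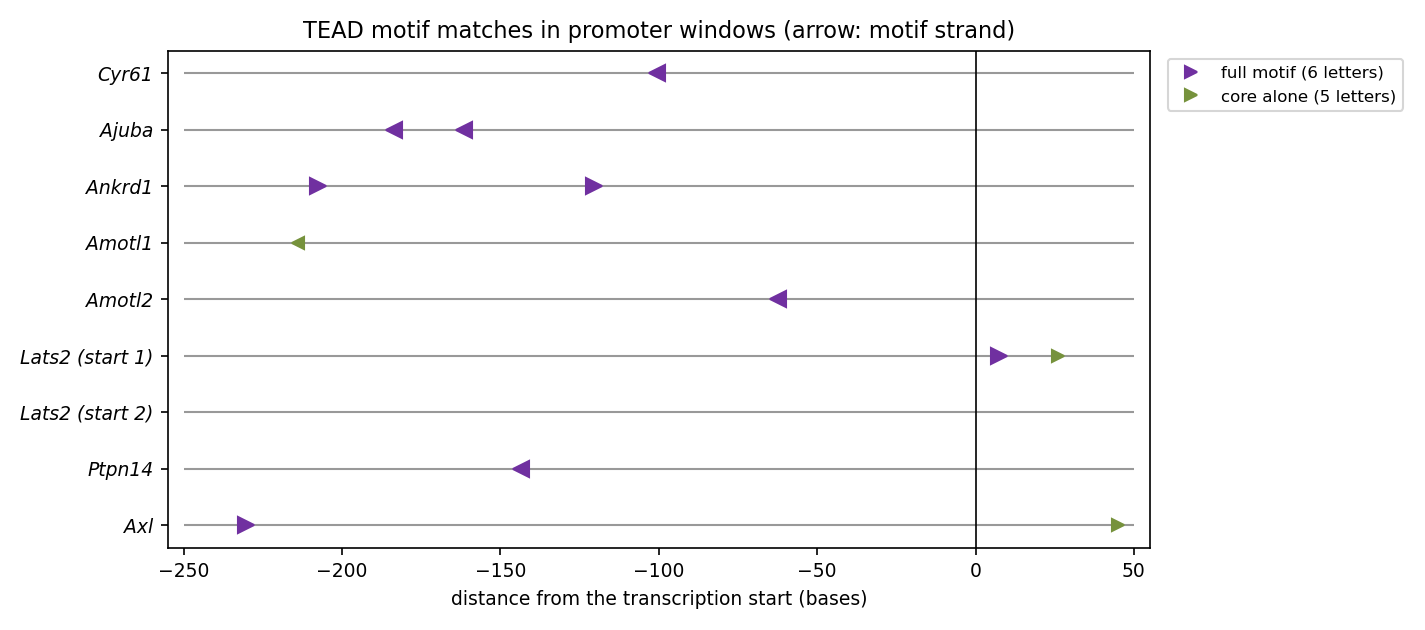
Positions of the TEAD motif in the promoter windows of 8 genes (Lats2 at 2 starts), in bases from the RefSeq transcription start. Purple arrows are the full motif and green arrows the core alone, pointing right where the motif reads along the gene, and the full motif appears in 7 of the 9 windows.

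The motif of AP-1, TGANTCA, a factor that often acts beside TEAD, was in 0 of the 8 genes and in 7.81% of all windows. The CArG box of the serum response factor SRF was also in 0 of the 8 and in 1.63% of all windows. Among 13 SRF target genes with a window the same search found a CArG box in 7. Of 12 other YAP target genes with a window, 1 held the GGAATG motif in either form, and of 24 Hippo pathway genes 11 did. No match says only that these letters are missing from this window.

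The 10 genes did not move as 1 block. The secreted factors Ctgf, Cyr61 and Thbs1 and the LIM-domain gene Ajuba were higher without asparagine by 1.62-fold to 2.99-fold. Amotl2, Lats2 and Ankrd1 had fold changes of 1.17 to 1.38. Amotl1, Ptpn14 and Axl had lower values without asparagine, at 0.797 to 0.899 times the level with it. In the edgeR fit over all 12843 genes, 4 of the 10 passed the adjusted p threshold of 0.05, all higher (Ctgf, Cyr61, Thbs1 and Ajuba), where 0.771% of all genes were called higher, 1.07% lower and 1.85% in either direction. Since the list was drawn up with this comparison known, the count is no evidence about the list. The median log2 fold change of the 10 was 0.36, and that of all tested genes was 0.01.

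In all 10 genes the 2 libraries of one group lay on one side of the 2 libraries of the other, 7 higher and 3 lower without asparagine. Over all tested genes the groups were apart in the same way for 52.5%, with 26.1% higher and 26.4% lower, so such a separation was common with 2 libraries a group. These are bulk libraries, in which a change in RNA per cell and a change in the share of cells that carry the RNA cannot be told apart.

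**Figure D2:**
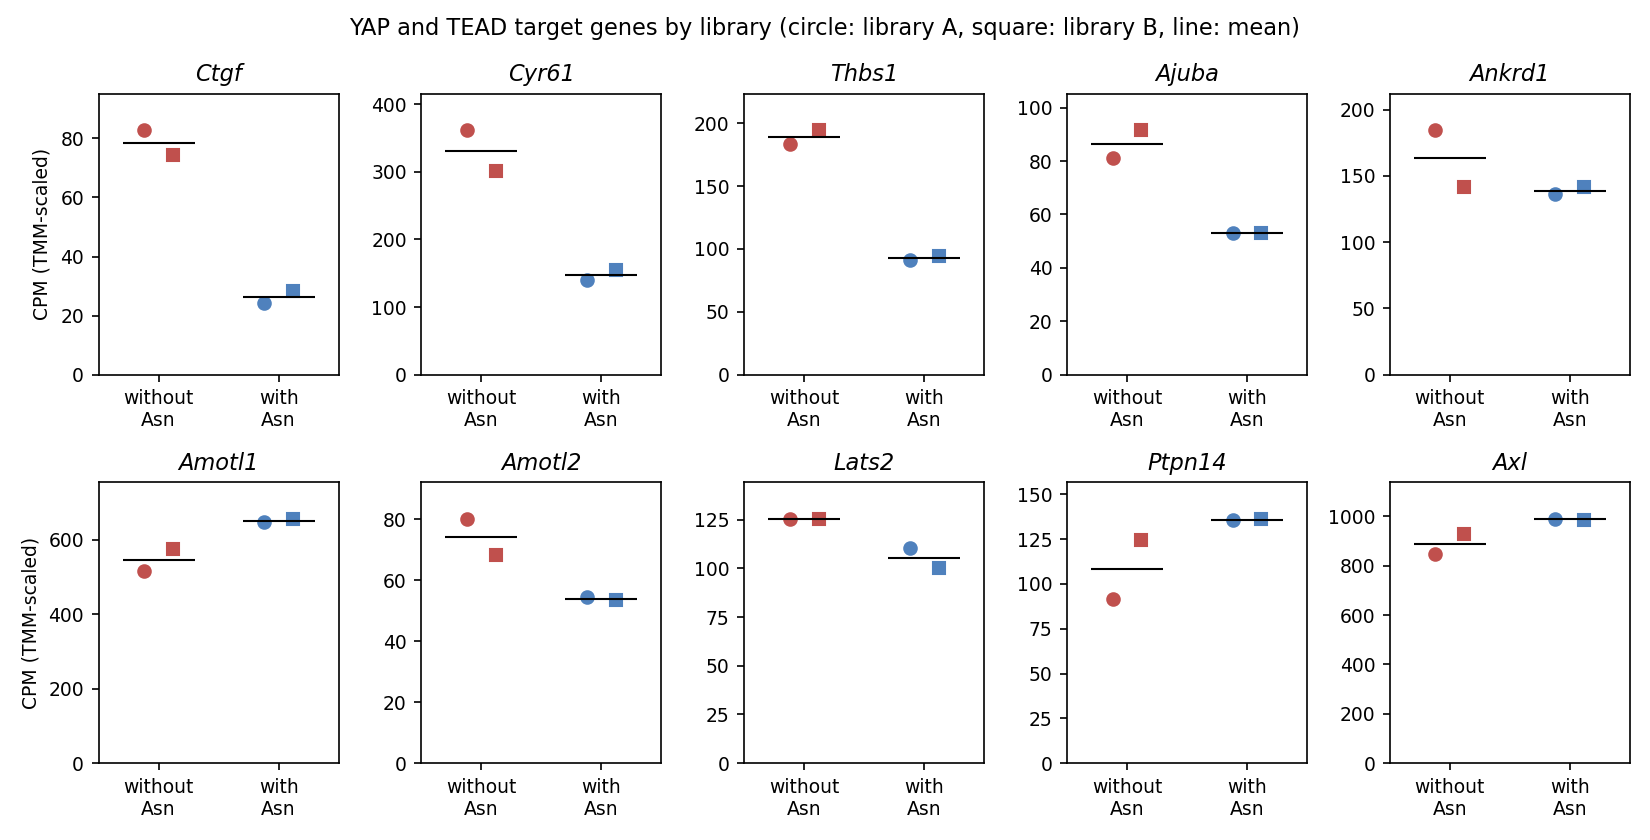
TMM-scaled CPM of the 10 genes, with cells without asparagine on the left of each panel, points for libraries and lines for means of 2 libraries. Ctgf, Cyr61, Thbs1 and Ajuba show the largest ratios between groups, while the single Ankrd1 value of 185 CPM in library A without asparagine stands above 3 values between 136 and 142 CPM.

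Ctgf encodes connective tissue growth factor, a secreted matricellular protein and a widely used readout of YAP activity. It had 82.8 (A) and 74.3 (B) CPM without asparagine, against 24.1 (A) and 28.3 (B) CPM with it. Both libraries without asparagine were far above both with it. The means were 78.6 ± 5.98 CPM without and 26.2 ± 2.94 CPM with asparagine (SD, n = 2 each), and the log2 fold change was 1.58 ± 0.13 (SE). By log2 fold change it ranked 65 from the top among the 12843 tested genes. The gene lies on chromosome 10 from 24595442 to 24598683.

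Cyr61 encodes a related protein of the same CCN family, which binds integrins. Its level was 361 (A) and 301 (B) CPM without asparagine, against 141 (A) and 154 (B) CPM with it. The groups were apart, and the spread without asparagine was wider than with it. The means were 331 ± 42.8 CPM without and 147 ± 9.63 CPM with asparagine (SD, n = 2 each), with a log2 fold change of 1.17 ± 0.13 (SE) and rank 159 from the top. Per kilobase of exon, the ratio of Ctgf to Cyr61 was 0.162 (A) and 0.174 (B) without asparagine and 0.121 (A) and 0.129 (B) with it, so Cyr61 remained the more abundant in every library. Cyr61 lies on chromosome 3 from 145646976 to 145649981.

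Thbs1 encodes thrombospondin-1, a secreted glycoprotein that activates latent TGF-beta and binds CD47 and CD36. It had 184 (A) and 194 (B) CPM without asparagine, against 91.2 (A) and 94.6 (B) CPM with it. All 4 values were close to their group mean, and the groups did not overlap. Its log2 fold change of 1.02 ± 0.10 (SE) ranked 207 from the top. Of the 10 genes its log2 fold change moved least when a library was left out, between 0.98 and 1.06. Thbs1 lies on chromosome 2 from 118111876 to 118127133.

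Ajuba encodes a LIM-domain protein that binds LATS kinases and favours YAP activity. It had 81.1 (A) and 91.6 (B) CPM without asparagine, against 53.2 CPM in both libraries with it. The lowest value without asparagine was thus well above both values with it. The means were 86.3 ± 7.39 CPM without and 53.2 ± 0.0287 CPM with asparagine (SD, n = 2 each), and the log2 fold change was 0.70 ± 0.11 (SE). Ajuba lies on chromosome 14 from 54567472 to 54577558.

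Ankrd1 encodes an ankyrin-repeat protein of muscle sarcomeres and nuclei and is, like Ctgf and Cyr61, a standard YAP readout. It had 185 (A) and 142.05 (B) CPM without asparagine, against 136 (A) and 141.55 (B) CPM with it. Library B without asparagine had practically the same level as library B with asparagine, and library A alone was high. The log2 fold change was 0.23 ± 0.14 (SE) with all libraries, 0.03 with library A of the cells without asparagine left out and 0.41 without library B of the same cells. Ankrd1 lies on chromosome 19 from 36111961 to 36120099.

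Amotl2 and Amotl1 encode angiomotin-like proteins, scaffolds that bind YAP in the cytoplasm and at junctions and hold it back. Amotl2 had 80.2 (A) and 68.1 (B) CPM without asparagine, against 54.4 (A) and 53.4 (B) CPM with it. Amotl1 had 517 (A) and 576 (B) CPM without asparagine, against 647 (A) and 657 (B) CPM with it. Amotl2 was therefore higher and its paralogue Amotl1 lower in both libraries without asparagine. The log2 fold change was 0.46 ± 0.12 (SE) for Amotl2 and -0.26 ± 0.11 (SE) for Amotl1. Amotl1 was the more abundant of the pair, and per kilobase of exon the ratio of Amotl2 to Amotl1 was 0.219 ± 0.0415 without and 0.132 ± 0.00321 with asparagine (SD, n = 2 each). Both genes lie on chromosome 9, Amotl2 from 102716672 to 102733418 and Amotl1 from 14541966 to 14645056.

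Lats2 encodes one of the kinases that phosphorylate YAP. It had 125.5 (A) and 125.1 (B) CPM without asparagine, against 110.4 (A) and 100.2 (B) CPM with it. The groups did not overlap, and the difference of the means was small, with a log2 fold change of 0.25 ± 0.10 (SE). The ratio of Lats2 to its paralogue Lats1, per kilobase of exon, was 0.466 (A) and 0.309 (B) without asparagine and 0.252 (A) and 0.240 (B) with it. The ratio was higher in both libraries without asparagine, and library A stood above B by more than the groups' nearest values were apart. Lats2 lies on chromosome 14 from 57689662 to 57758388.

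Ptpn14 encodes a tyrosine phosphatase that binds YAP and restrains it. It had 91.8 (A) and 125 (B) CPM without asparagine, against 135 (A) and 136 (B) CPM with it. Library B without asparagine lay much nearer to the libraries with asparagine than to library A of its own group. The log2 fold change was -0.33 ± 0.15 (SE), with -0.13 when library A without asparagine was left out and -0.57 when library B of that group was. Ptpn14 lies on chromosome 1 from 189728268 to 189876695.

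Axl encodes a receptor tyrosine kinase linked in many carcinomas to invasion. It had 847 (A) and 930.2 (B) CPM without asparagine, against 991 (A) and 986 (B) CPM with it. Both libraries without asparagine were below both with it, and the log2 fold change was -0.15 ± 0.11 (SE). Axl lies on chromosome 7 from 25757273 to 25788705.

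Levels can be ordered across the genes per kilobase of exon. Axl came first, with 177 CPM per kilobase without and 196 with asparagine, and Cyr61 second, with 164 without and 73.0 with asparagine. In cells without asparagine Axl and Cyr61 were not separated beyond their spread, with 168 and 185 CPM per kilobase for Axl and 179 and 149 for Cyr61. The next places went to Ankrd1 (56.6 without, 48.2 with asparagine) and Amotl1 (54.3 without, 64.8 with asparagine), whose library values overlapped without asparagine and did not with it. Ctgf had 27.5 CPM per kilobase without asparagine and 9.16 with it, and so was 6th of the 10 without asparagine and 9th with it. Without asparagine Thbs1 stood at 31.1, Ajuba at 23.7 and Lats2 at 17.98, with no overlap. With asparagine they averaged 15.3, 14.6 and 15.1, and the values of Lats2 overlapped those of Thbs1 and of Ajuba, while Thbs1 and Ajuba did not overlap each other. Without asparagine the lowest were Amotl2, at 11.8 without and 8.57 with asparagine, and Ptpn14, at 8.07 without and 10.1 with asparagine. With asparagine the values of Amotl2 lay within those of Ctgf. The lengths are those of all annotated exons merged, so genes with many alternative exons appear lower.

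The calls depended on which libraries were in the fit. Ctgf was the only member called when library A with asparagine was left out, where 0.438% of all genes were called in either direction, and again when library B with asparagine was left out (0.363%). With library A of the asparagine-free cells left out 7 of the 10 were called in either direction (15.6% of all genes), and without library B of those cells all 10 (40.4% of all genes). A group left with a single library was assumed to vary like the other. No member changed the sign of its log2 fold change in any of the 12 other fits. Between libraries A and B of one group, the 10 genes differed by a median of 0.17 on the log2 scale without and 0.04 with asparagine.

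**Figure D3:**
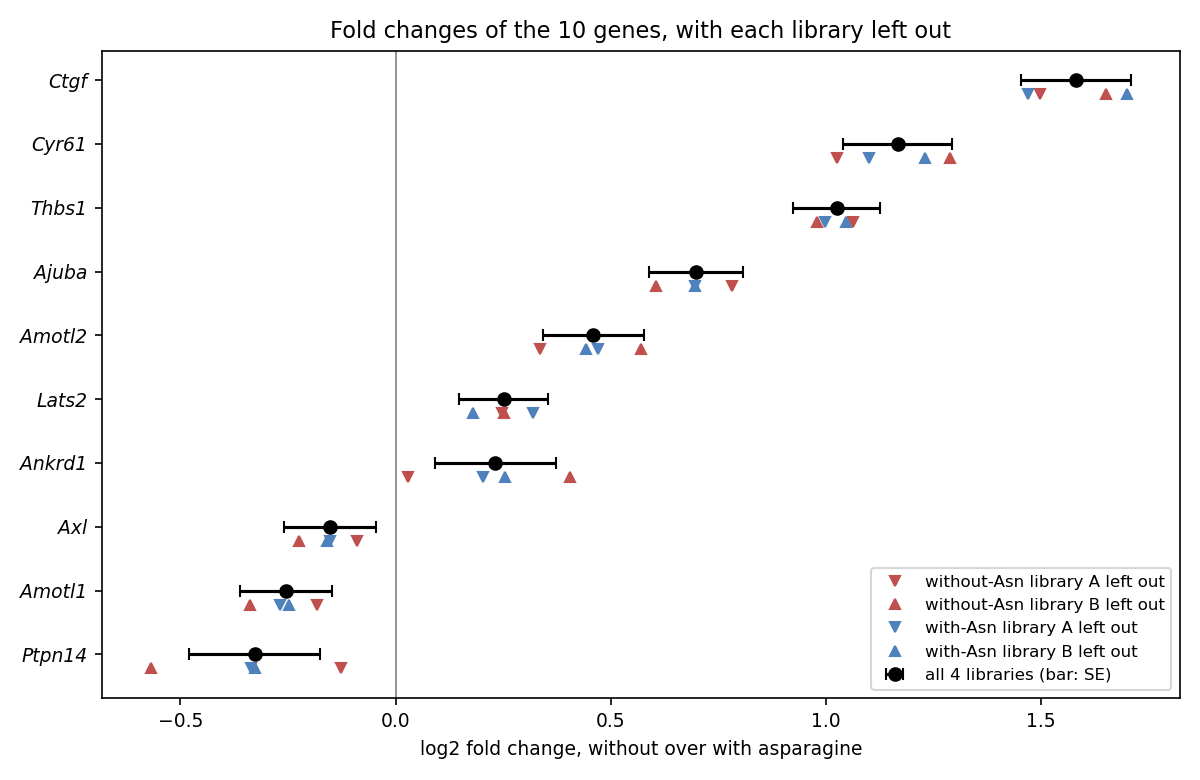
Log2 fold change, without over with asparagine, of the 10 genes in the fit to all 4 libraries (black, with SE) and with each library left out (triangles). The order from Ctgf at 1.58 to Ptpn14 at -0.33 is that of the fit to all libraries, and no triangle crosses 0.

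Among the genes of the Hippo pathway itself, 1 of the 25 tested members of a list of 30 changed, where 1.85% of all genes were called in either direction and 1.07% lower. A single call, here and in the lists that follow, is a result about that gene and not about its list. Wwtr1, which encodes TAZ, fell to 256 (A) and 261 (B) CPM without asparagine, against 389 (A) and 370.1 (B) CPM with it. The groups were well apart, and the log2 fold change was -0.55 ± 0.10 (SE, edgeR adjusted p = 0.0470). The call was lost with upper quartile scaling (-0.51 ± 0.10, adjusted p = 0.0579) and without library A (-0.52 ± 0.22, adjusted p = 0.735) or library B (-0.59 ± 0.22, adjusted p = 0.604) of the cells with asparagine. The list median was -0.08, against 0.01 for all tested genes, and 10 of its 25 tested members were above 0.

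Yap1 had 116 (A) and 139 (B) CPM without asparagine, against 147 (A) and 149 (B) CPM with it. At -0.21 ± 0.12 (SE), its log2 fold change missed the threshold (edgeR adjusted p = 0.393), and the 95% interval was -0.49 to 0.07. Without library B of the cells without asparagine it was -0.35, and without library A of those cells it was -0.09. Per kilobase of exon, Wwtr1 exceeded Yap1 4.27 (A) and 3.62 (B) times without asparagine and 5.14 (A) and 4.81 (B) times with it.

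Of the 4 TEAD genes, Tead1 was the most abundant by counts, with 551 ± 58.1 CPM without and 592 ± 8.54 CPM with asparagine (SD, n = 2 each). None of them passed the edgeR test with all 4 libraries. With library B of the asparagine-free cells left out Tead1 was at -0.22 and Tead2 at -0.58. With library A of those cells left out they were at -0.0021 and -0.08. The log2 fold changes, with 95% intervals, were -0.10 (-0.37 to 0.17) for Tead1 and -0.30 (-0.76 to 0.16) for Tead2. They were 0.37 (-0.13 to 0.87) for Tead3 and 0.12 (-0.15 to 0.39) for Tead4. A p that misses the threshold does not show equal levels, and each interval gives the differences that these libraries allow.

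In a list of 19 other YAP target genes, of which 15 were tested, 1 changed, against 0.771% of all genes called higher. Tgfb2, which encodes a ligand of the TGF-beta family, rose to 21.4 (A) and 19.8 (B) CPM without asparagine, against 12.4 (A) and 11.2 (B) CPM with it. The log2 fold change was 0.81 ± 0.13 (SE, edgeR adjusted p = 0.0368), and the call was lost without library A (adjusted p = 0.250) or B (adjusted p = 0.464) with asparagine. Gadd45a and Nt5e, picked with their values in view, had log2 fold changes of 0.74 ± 0.23 and -0.46 ± 0.11 (SE, edgeR adjusted p = 0.173 and 0.0993). Gadd45a had 11.99 (A) and 7.78 (B) CPM without asparagine, against 5.59 (A) and 6.17 (B) CPM with it. Its difference rested much on library A, the log2 fold change being 0.40 with library A and 1.02 with library B of the asparagine-free cells left out. In the other fits that used every library, both genes were called with no low-count filter and with the replicate block. DESeq2 also called Nt5e (adjusted p = 0.0397). Gadd45a encodes a stress-induced growth arrest protein and Nt5e the surface enzyme CD73. The list median was 0.07, with 9 of the 15 tested above 0. Its sign was not stable, since the median was -0.01 with library A of the asparagine-free cells left out and 0.18 with library B of the cells given asparagine left out.

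Among 16 relatives of the 10 genes, of which 12 were tested, 1 changed, against 1.07% of all genes called lower. The list median was -0.06, and it had no stable sign, running from -0.17 to 0.06 with a library left out. Amot, Lats1, Limd1 and Wtip stand in this list and in that of the Hippo pathway. Mertk, which encodes a receptor kinase of the same family as Axl, fell to 1.91 (A) and 1.97 (B) CPM without asparagine, against 5.21 (A) and 5.27 (B) CPM with it. The 2 libraries of each group were almost equal, and the log2 fold change was -1.43 ± 0.20 (SE, edgeR adjusted p = 0.0249). The call was lost without library A (adjusted p = 0.152) or B (adjusted p = 0.185) with asparagine, while the log2 fold change remained -1.44 and -1.43. Tyro3, the third receptor of the family, had 11.6 ± 2.17 CPM without and 14.2 ± 0.251 CPM with asparagine (SD, n = 2 each, edgeR adjusted p = 0.401). Per kilobase of exon, Axl exceeded Mertk by 395 ± 17.3 times without and 162 ± 1.91 times with asparagine.

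The other CCN and thrombospondin genes that were tested did not pass the edgeR test with all 4 libraries. Thbs2 and Thbs4 were not tested, having failed the filter on low counts. Wisp1 (now Ccn4) had 56.1 ± 3.54 CPM without and 42.5 ± 3.24 CPM with asparagine, and Nov (now Ccn3) had 1.88 ± 0.190 CPM without and 3.66 ± 0.299 CPM with it (SD, n = 2 each). Their log2 fold changes were 0.40 ± 0.11 and -0.96 ± 0.23 (SE, edgeR adjusted p = 0.150 and 0.108). The thrombospondin gene Thbs3 was at 0.76 ± 0.20 (log2 fold change, SE, edgeR adjusted p = 0.132). Comp, also of the thrombospondin family, had the highest log2 fold change of the relatives, 1.45 ± 0.50 (SE, edgeR adjusted p = 0.203). It had only 18 (A) and 13 (B) counts without and 5 (A) and 10 (B) with asparagine. Wisp2 (now Ccn5) was at 0.81 ± 0.51 (SE, edgeR adjusted p = 0.432), with 8 to 23 counts a library. Wisp1, Nov, Thbs3, Comp, Wisp2 and Tyro3 were picked for mention with their values in view. In the other fits that used every library, Nov was called with no low-count filter and with the replicate block. Among those fits Thbs3 was called with no low-count filter alone, and Wisp1 in none.

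Of 15 receptors and ligands of the members' products 12 were tested, and of these 11 had a log2 fold change below 0, the median was -0.27 and 1 changed, against 1.07% of all genes called lower. Over all genes tested 6245 of 12843 were below 0. Pros1, which encodes protein S, a ligand of TAM receptors, fell to 10.6 (A) and 10.3 (B) CPM without asparagine, against 17.5 (A) and 18.2 (B) CPM with it. The log2 fold change was -0.77 ± 0.13 (SE, edgeR adjusted p = 0.0368), lost with upper quartile scaling (adjusted p = 0.0549) and without library A (adjusted p = 0.309) or B (adjusted p = 0.427) with asparagine. Gas6, the ligand that binds Axl, had 1 count in library B with asparagine and 0 counts in the other 3 libraries.

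Lrp1, Sdc4, Itgb3 and Cd47 of that list, picked with their values in view, missed the edgeR threshold in the fit to all libraries. DESeq2 called Lrp1 (adjusted p = 0.00210) and Sdc4 (adjusted p = 0.0243), and edgeR called Lrp1, Sdc4 and Itgb3 with the replicate block (adjusted p = 0.00558, 0.00943 and 0.0102) and with no low-count filter. Without library A of the asparagine-free cells the log2 fold changes were -0.50 (Lrp1), -0.37 (Sdc4), -0.44 (Itgb3) and -0.28 (Cd47). With every library they were -0.65, -0.66, -0.79 and -0.32 in the same order. Lrp1, an endocytic receptor for Ctgf and thrombospondin-1, had 170.2 (A) and 212 (B) CPM without asparagine, against 294 (A) and 305 (B) CPM with it (edgeR adjusted p = 0.0663). The syndecan gene Sdc4, a matrix co-receptor, had 284 (A) and 448 (B) CPM without asparagine, against 559 (A) and 594 (B) CPM with it (edgeR adjusted p = 0.174). The integrin gene Itgb3 had 7.03 (A) and 12.9 (B) CPM without asparagine, against 18.03 (A) and 16.8 (B) CPM with it (edgeR adjusted p = 0.182). In Lrp1, Sdc4 and Itgb3 library A without asparagine had the lowest value and library B lay between it and the libraries with asparagine. Cd47, a thrombospondin-1 receptor gene, had a log2 fold change of -0.32 ± 0.10 (SE, edgeR adjusted p = 0.175). The list median was -0.16 with library A of the cells without asparagine left out.

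SRF target genes, some of which are shared with YAP, numbered 15, of which 11 were tested, with a median log2 fold change of 0.14 and 8 above 0. Of the 11, 0 were called by edgeR, 0 by DESeq2 and 0 by limma-voom, and 3 had an unadjusted edgeR p under 0.05, as had 2328 of all 12843 genes tested. The list median was 0.21 with library A of the asparagine-free cells left out. The smallest p was that of Tpm1, a tropomyosin gene, with 852 ± 17.8 CPM without and 697 ± 41.9 CPM with asparagine (SD, n = 2 each, log2 fold change 0.29 ± 0.11 SE, edgeR adjusted p = 0.222).

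**Figure D4:**
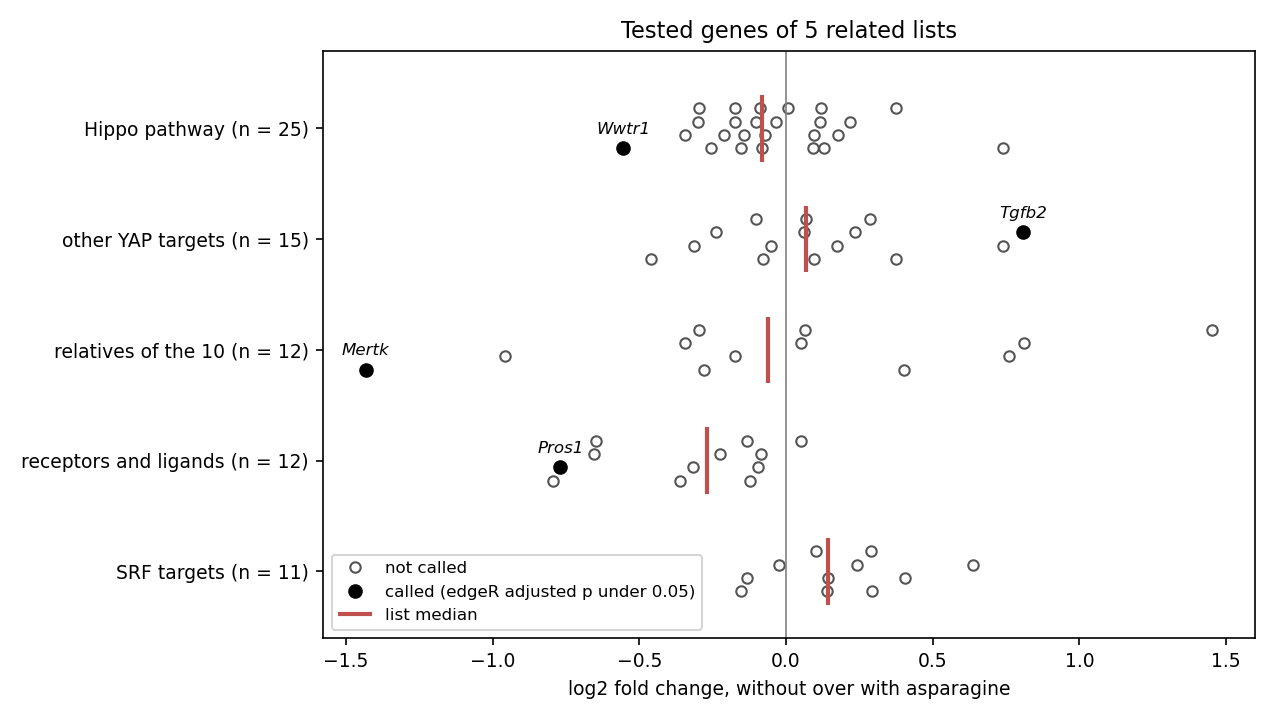
Log2 fold change, without over with asparagine, of the tested genes of 5 lists related to the 10 members. Filled points passed the edgeR test and red lines are list medians, and 1 gene passed in each of the first 4 lists (Wwtr1, Tgfb2, Mertk and Pros1) and none among SRF targets.

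In GENCODE M21, exons of Ctgf, Thbs1 and Ptpn14 overlap those of a gene on the opposite strand, and the same holds for Yap1, Tead2, Tgfb2, Gadd45a, Thbs3 and Gas6. The use of strand in counting is not stated, so reads of the partner genes could be included. Exons of Lats2 overlap those of a gene model on the same strand.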

How the data were processed

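The labels' protocols name Qiagen RNAeasy for RNA extraction and Nugen Ovation RNAseq V2 for the libraries of the 2 groups (2 libraries each). The values the authors deposited are raw read counts, one row for each gene symbol. Per the submitters' processing notes Bowtie2, HTSeq and build mm10 were used, while their versions, settings, annotation and use of strand are not stated there. The 5 HTSeq summary rows held 60.1% to 70.0% of all reads in a library and stayed out of library sizes and tests.

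Counts were filtered with filterByExpr (minimum count 10, minimum total 15), scaled by TMM and tested with the quasi-likelihood F test of edgeR 4.0.16 on the 2 groups, with Benjamini-Hochberg adjustment over all 12843 genes and a threshold of 0.05. Fold changes are without over with asparagine, and an SE is the size of the log2 fold change over the square root of F. The common biological coefficient of variation was 11.2%. The counts of libraries A and B differed beyond sampling noise in both groups. Lengths and positions were taken from GENCODE M21 (mm10) and promoter windows from RefSeq on GRCm38.p6. The script was tested on simulated data with known fold changes, in which all genes and both groups had the same biological variation. The wider spread of the libraries without asparagine was not simulated.

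The members and the lists were chosen with earlier results of these data known. Besides the 10 members, the rule for naming genes gave Yap1, Wwtr1, the 4 TEAD genes and, from each other list, up to 4 called genes with the largest change or, where none was called, the gene with the smallest p. Other scalings tried in edgeR were DESeq2 1.42.0 size factors and upper quartiles, and other tools were the Wald test of DESeq2 and limma-voom (limma 3.58.1). The low-count filter was dropped or raised to 5 CPM in 2 libraries, the 10 most abundant genes were removed, the letter was added as a block, and each library was left out in turn. Other genes picked with their values in view are marked as such.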

Additional observations from a re-analysis of the deposited data

How the results depend on the processing

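The log2 fold changes of the 10 members kept their direction in all 12 alternative fits, and the 4 calls held in the 8 that used every library. The counts of all genes called higher and lower, 99 and 138 in the fit reported, were 193 and 271 with the DESeq2 Wald test, and 615 and 719 with no low-count filter. The letters A and B are not stated to pair libraries, and deviations of same-letter libraries had a correlation of 0.12 across genes. With the letter as a replicate block, 344 genes were higher and 472 lower, and 5 members were called higher, Amotl2 being added. With a library left out, the counts of all genes ran from 24 to 2502 higher and from 24 to 2861 lower, those of members from 1 to 7 higher and from 0 to 3 lower. Called Hippo pathway genes, 1 in the fit reported, were 0 with upper quartile scaling and from 0 to 13 with a library left out. Called other YAP targets were 2 with DESeq2, 3 with no filter, 3 with the replicate block and from 0 to 6 with a library left out. Called relatives were 3 with no filter, 2 with the replicate block and from 0 to 9 with a library left out. Called receptors and ligands were 0 with upper quartile scaling, 3 with DESeq2, 4 with no filter, 4 with the replicate block and from 0 to 10 with a library left out. Called SRF targets ran from 0 to 6 with a library left out. Where a library with asparagine was left out, the spread came from the more distant pair without asparagine, and where a library without asparagine was left out it came from the closer pair. With the 5-letter core, 8 member genes had a TEAD match in place of 7. With 2 libraries a group, only large or tightly replicated differences pass the threshold.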
